A study of Homo sapiens with 18 samples.

Results

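Kinesins and centromere proteins were followed by gene symbol: every gene named KIF with a number, KIFC with a number, or CENP with a single letter in either deposited count table. The rule took 61 of the 22219 genes listed, 40 kinesins and 21 CENP genes. By their textbook roles, 13 of the kinesins were placed with the motors of the mitotic spindle, 15 with the motors that carry cargo along microtubules, and 12 with neither. Poly(A) RNA was sequenced from H1299 and A549, established human lung carcinoma lines grown in RPMI-1640 and in DMEM, respectively. Each line was transfected with a pool of siRNAs at 30 nM, either a control pool (siControl), siYAP or siTAZ, and was harvested 48 h later after 18 h without serum. Each of the 6 groups had 3 libraries, 18 in all. The groups are transient knockdowns in cultured lines, so every group, siControl included, carried a transfection and the serum-free interval. Each line has its own deposited table, and line, medium and experiment cannot be told apart.

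Mitotic kinesins build and move the spindle: KIF11 pushes its poles apart, KIF2C takes microtubules apart at the centromere, KIF23, KIF20A and KIF4A act at the central spindle where the cell divides. Centromeres are marked by CENPA, a histone H3 variant, on which the constitutive centromere-associated network (CENPC, CENPH, CENPI, CENPK to CENPU, CENPW and CENPX) is assembled, and CENPE and CENPF join it at the outer kinetochore as cells enter mitosis. Most of these genes are transcribed late in the cell cycle, under the DREAM and MuvB-FOXM1 complexes, which act through CHR and CCAAT elements of their promoters. Transport kinesins such as KIF5B, KIF1C and KIF3B work throughout the cycle. YAP (gene YAP1) and TAZ (gene WWTR1) are paralogous co-activators of the Hippo pathway that act largely through TEAD transcription factors, whose core motif is CATTCC. In bulk RNA, fewer cells in mitosis and less RNA per cell cannot be told apart.

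H1299 libraries held 16.8 to 20.8 M reads assigned to genes, and A549 libraries 10.7 to 45.0 M. YAP1 fell by 2.48 ± 0.15 on the log2 scale in siYAP H1299 cells and by 1.78 ± 0.06 in A549, and WWTR1 fell by 2.38 ± 0.28 and 1.63 ± 0.06 under siTAZ (± SE, here and below). In H1299 the replicate 2 libraries kept the most target RNA: YAP1 stood at 12.8, 19.6 and 11.7 CPM (read counts per M reads after TMM scaling of the library) in siYAP replicates 1, 2 and 3, and WWTR1 at 36.1, 82.7 and 29.0 CPM in siTAZ. In A549 the replicate 3 libraries of all 3 groups had the lowest mitotic kinesin RNA, with sums given in the A549 results. Of the epithelial markers, KRT8 and KRT18 were abundant in both lines, while KRT19 and EPCAM averaged at most 0.44 and 0.41 CPM in any H1299 group. EPCAM averaged 2.72 to 3.09 CPM in the A549 groups. CD68, a macrophage marker, averaged at most 0.36 CPM in any group. The labels do not say that replicates were separate cultures, so p-values measure the spread between libraries, which may be technical.

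The reference promoters of the classes hold different elements. RefSeq promoters (GRCh38.p14, 250 bases before to 50 after the start) were at hand for 50 of the 61 members. A single entry was used per gene, and some entries lie inside the gene as GENCODE draws it. For CENPI the 120 bases before the start are chrX:101100938-101101057, in a gene beginning at 101098218. For KIF5C they are chr2:148947755-148947874, in a gene beginning at 148875250. Both are counted below as promoters without a CHR. The CHR element, searched on both strands as TTTGAA or TTCGAA, was held by 11 of 13 mitotic kinesins (84.6%), 6 of 17 CENP genes (35.3%) and 1 of 11 transport kinesins (9.09%), against 16.4% of all 35116 promoters and 11.8% of the promoters of genes tested in H1299. CCAAT, on either strand, was in 84.6% of mitotic kinesin promoters, 52.9% of CENP promoters and 27.3% of transport kinesin promoters, against 34.6% of all. The TEAD core CATTCC was in 2 of 13 mitotic kinesin promoters (15.4%), 4 of 17 CENP promoters (23.5%) and 2 of 11 transport kinesin promoters (18.2%), beside 14.0% of all and 11.3% of those of genes tested in H1299. A letter match is not a bound site, and a missing match says only that the letters are not in this window.

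A set of 6 promoters shows these layouts, each as the 120 bases before the RefSeq start, read 5′ to 3′ in the direction of the gene with CHR, CCAAT and CATTCC letters in capitals on either strand. KIF11 (chr10:92593010-92593129, plus strand) and KIF4A (chrX:70289984-70290103, plus strand) hold a CCAAT element followed by a CHR. KIF18B (chr17:44947774-44947893, minus strand) and CENPF (chr1:214603075-214603194, plus strand) hold 2 or more CCAAT elements and no CHR in the window shown. KIF5B (chr10:32056426-32056545, minus strand) and KIF13A (chr6:17987636-17987755, minus strand) are transport kinesins for comparison, the first with 1 CCAAT and the second with none of the motifs. KIF18B, CENPF and KIF5B are nonetheless counted above as CHR holders. Their TTTGAA lies outside the bases shown, at positions 2, 40 and -140 from the start. KIF5B is the 1 transport kinesin counted with a CHR.
KIF11: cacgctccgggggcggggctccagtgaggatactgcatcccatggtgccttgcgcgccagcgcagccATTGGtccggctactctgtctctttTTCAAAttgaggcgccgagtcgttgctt
KIF4A: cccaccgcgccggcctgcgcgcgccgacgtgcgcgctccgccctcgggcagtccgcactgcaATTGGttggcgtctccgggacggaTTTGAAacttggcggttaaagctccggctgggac
KIF18B: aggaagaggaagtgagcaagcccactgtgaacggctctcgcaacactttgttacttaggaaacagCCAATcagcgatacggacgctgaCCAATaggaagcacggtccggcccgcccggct
CENPF: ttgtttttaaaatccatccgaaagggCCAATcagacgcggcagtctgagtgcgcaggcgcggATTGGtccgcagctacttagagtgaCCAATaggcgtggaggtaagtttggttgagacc
KIF5B: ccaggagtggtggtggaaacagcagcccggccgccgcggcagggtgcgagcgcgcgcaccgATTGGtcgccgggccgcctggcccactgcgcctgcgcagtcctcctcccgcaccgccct
KIF13A: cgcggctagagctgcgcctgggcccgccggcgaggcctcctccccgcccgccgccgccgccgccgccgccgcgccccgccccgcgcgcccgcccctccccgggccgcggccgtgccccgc

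Per kilobase of exon, mitotic kinesin RNA was abundant in H1299 and scarcer in A549, while transport kinesin RNA was alike in scale. The median member stood at 20.3 CPM per kb for mitotic and 5.68 for transport kinesins in H1299 siControl libraries, and at 6.08 and 4.82 in A549. KIF2C, the centromeric depolymerase, was at 39.3 ± 5.87 CPM per kb (SD, n = 3) in H1299 and 6.40 ± 2.56 in A549. KIF5B, the ubiquitous kinesin-1 heavy chain, was at 37.9 ± 1.03 and 38.7 ± 3.23. Its neuron-enriched paralogs stood below it: KIF5C was at 8.17 ± 0.83 CPM per kb in H1299 and 0.328 ± 0.0393 in A549, and KIF5A at 2.58 ± 0.21 and 0.231 ± 0.0860. KIF2C and KIF5B do not differ beyond their spread in H1299, and the KIF5 order KIF5B, KIF5C, KIF5A was the same in both lines, with KIF5C and KIF5A close together in A549. These levels come from tables counted separately and are set side by side without a test.

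In H1299, knockdown of either co-activator lowered the mitotic kinesins together and left the transport kinesins near control. Summed over the class, mitotic kinesin RNA was 1190, 1006 and 1398 CPM in the siControl libraries. It was 560, 789 and 546 CPM under siYAP and 755, 788 and 633 CPM under siTAZ, which is 52.7% and 60.5% of the control mean. All siYAP and siTAZ libraries lay below all siControl libraries. Transport kinesins summed to 1085, 1083 and 1049 CPM in siControl, 1018, 1052 and 1017 CPM under siYAP, and 1118, 1122 and 1112 CPM under siTAZ, or 96.0% and 104% of the control mean. The siTAZ sums lay above all siControl sums, and the siYAP sums overlapped them. Centromere and kinetochore genes stood at 60.0% under siYAP and 66.7% under siTAZ. The siYAP library with the most YAP1 RNA left, replicate 2, also had the highest mitotic sum of its group, and siTAZ replicate 2, with the most WWTR1 RNA left, had the highest of its group. The part of residual target RNA in these sums was not tested.

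**Figure D1:**
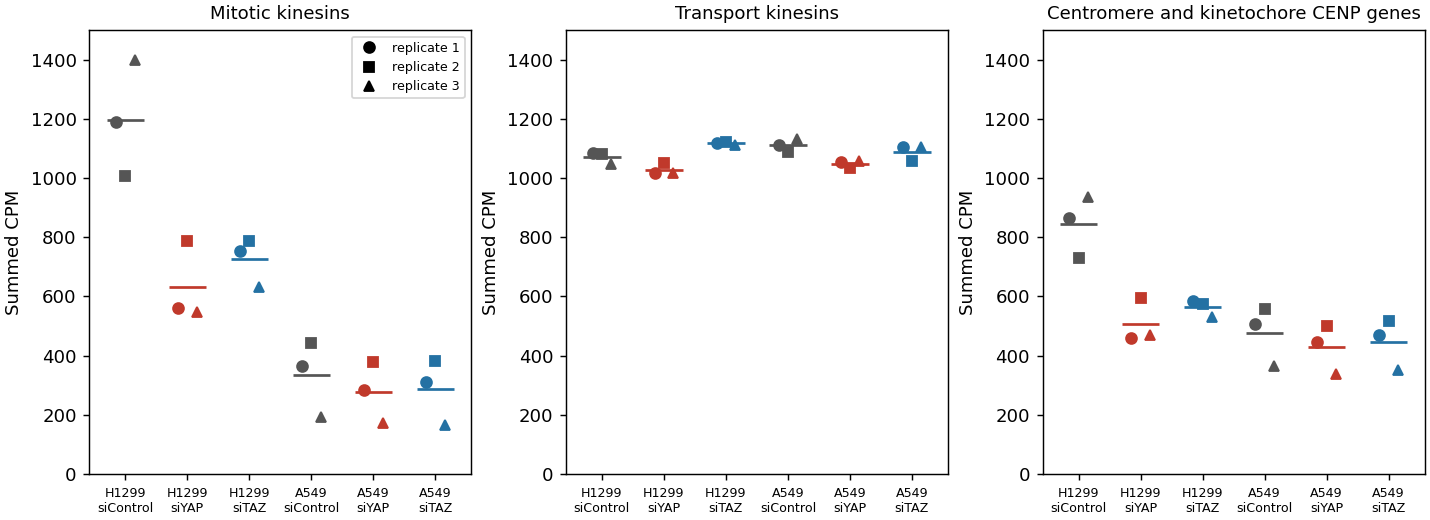
Summed CPM of the mitotic kinesins, the transport kinesins and the centromere and kinetochore CENP genes in each of the 18 libraries (y axis, from 0), by line and siRNA (x axis); symbols mark replicate numbers and bars the mean of 3 libraries. Mitotic sums drop from 1006 to 1398 CPM in H1299 siControl to 546 to 789 CPM under siYAP and 633 to 788 CPM under siTAZ, the transport panel stays between 1017 and 1131 CPM, and the A549 replicate 3 libraries are the lowest mitotic sums of their groups.

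All 12 mitotic kinesins tested in H1299 were called lower in both knockdowns, where a call is an adjusted p under 0.05 (edgeR, adjusted over all genes tested in the line). This count depends on where the class ends. KIF2A, a paralog of KIF2C that was placed with neither class, was not called, at -0.06 under siYAP and -0.02 under siTAZ. In siYAP, 30 of the 56 members tested were called lower and 1 higher, against 8.75% and 7.89% of all genes. In siTAZ, 31 were called lower and 5 higher, against 12.4% and 10.9%. The median mitotic kinesin changed by -0.93 under siYAP and -0.70 under siTAZ on the log2 scale, the median of all genes by 0.01 in both. With the replicate number as a block, 34 were called lower and 3 higher under siYAP, which adds CENPP, CENPV, KIF24 and KIF3C to the lower and KIF3B and KIF7 to the higher calls. Under siTAZ the block gave 33 and 8, which adds CENPB and KIF1C to the lower and KIF17, KIF5C and KIF7 to the higher. KIF4B, the remaining mitotic kinesin, is a near-identical retrocopy of KIF4A listed with 1 to 6 reads per library and was not tested.

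KIF2C (chr1:44739818-44767767, plus strand, GRCh38) had the largest change of the class under siYAP. It stood at 140, 124 and 166 CPM in siControl, 50.2, 82.9 and 48.5 under siYAP, and 87.8, 95.7 and 70.6 under siTAZ. All knockdown libraries were below all control libraries, and replicate 2 was the highest of each knockdown group. The log2 changes were -1.25 ± 0.18 (adjusted p = 0.0014) and -0.76 ± 0.18 (adjusted p = 0.0096). KIF23 (chr15:69414246-69448427, plus strand), the motor of the centralspindlin complex needed for cytokinesis, fell under either siRNA: 133, 102 and 165 CPM in siControl, 59.2, 77.7 and 55.4 under siYAP, and 69.2, 74.0 and 59.9 under siTAZ. The control libraries lay above all knockdown libraries, siYAP and siTAZ overlapped, and the changes were -1.06 ± 0.16 (adjusted p = 0.0016) and -0.98 ± 0.16 (adjusted p = 0.0014).

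KIF11 (chr10:92593286-92655395, plus strand), the tetrameric motor that separates spindle poles, was at 156, 129 and 173 CPM in siControl, 83.4, 104 and 75.1 under siYAP, and 105, 107 and 88.8 under siTAZ. Each knockdown library was below each control library, with log2 changes of -0.80 ± 0.13 and -0.61 ± 0.13. KIF4A, a chromosome-bound motor that shapes the central spindle, went from 101, 87.9 and 117 CPM to 41.5, 65.9 and 43.9 under siYAP and 71.0, 76.4 and 56.6 under siTAZ. Again each knockdown library was below each control library, with changes of -1.02 ± 0.17 and -0.59 ± 0.16. KIF20A, which brings the chromosomal passenger complex to the midzone, was at 84.6, 101 and 123 CPM in siControl, 39.7, 63.4 and 37.0 under siYAP, and 53.0, 74.0 and 43.6 under siTAZ, changes of -1.14 ± 0.21 and -0.86 ± 0.21.

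KIFC1, the minus-end motor that clusters extra centrosomes, was at 153, 116 and 171 CPM in siControl, 69.9, 97.3 and 69.5 under siYAP, and 81.2, 84.8 and 66.5 under siTAZ. KIF18B, a regulator of astral microtubules, was at 93.8, 72.8 and 107 CPM, then 41.7, 59.9 and 38.6, and 52.7, 49.6 and 35.9. KIF14, which works with citron kinase in cytokinesis, was at 46.7, 41.1 and 56.3 CPM, then 22.4, 34.9 and 20.5, and 27.7, 28.2 and 23.3. For these 3 motors the control libraries lay above all knockdown libraries, while siYAP and siTAZ overlapped. The siYAP and siTAZ changes were -0.90 and -0.92 for KIFC1, -0.97 and -0.99 for KIF18B, -0.89 and -0.87 for KIF14. The smallest changes of the class were those of KIF18A under siYAP (-0.53) and KIF22 under siTAZ (-0.42), both called. KIF15, a kinesin that backs up KIF11, was at 29.0, 26.0 and 32.6 CPM in siControl, 11.8, 21.2 and 11.9 under siYAP, and 18.9, 19.7 and 17.3 under siTAZ. Libraries of the knockdown were all below those of the control for 12 of 12 mitotic kinesins under siYAP and 11 of 12 under siTAZ, against 18.3% and 20.1% of genes tested. The exception was KIF20B, a motor of late cytokinesis, at 68.9, 48.5 and 82.8 CPM in siControl and 50.8, 41.4 and 43.5 under siTAZ.

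Leaving out any 1 H1299 library gave 26 to 33 members called lower under siYAP, and 11 or 12 mitotic kinesins. The single higher call became 2 without siControl, siYAP or siTAZ replicate 2. Under siTAZ, members called lower numbered 18 without siTAZ replicate 3 and 22 to 30 otherwise. Mitotic kinesins called lower numbered 5 without siTAZ replicate 3, 7 without siControl replicate 1, 7 without siControl replicate 3, and 12 otherwise. The 5 higher calls became 3 without siControl replicate 1, 2 without siControl replicate 3 and 2 without siTAZ replicate 3, and the 4 of them that are transport kinesins became 2 in each of these cases. Without all 3 replicate 3 libraries edgeR called 0 members lower in either knockdown, with 30 and 26 lower at an unadjusted p under 0.05. Most calls were also lost without all 3 replicate 1 libraries. The siYAP lower calls kept were then those of CENPA, CENPF, CENPW and KIF2C. Under siTAZ the mitotic kinesins that kept their lower call were KIF14, KIF18B, KIF23 and KIFC1.

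**Figure D2:**
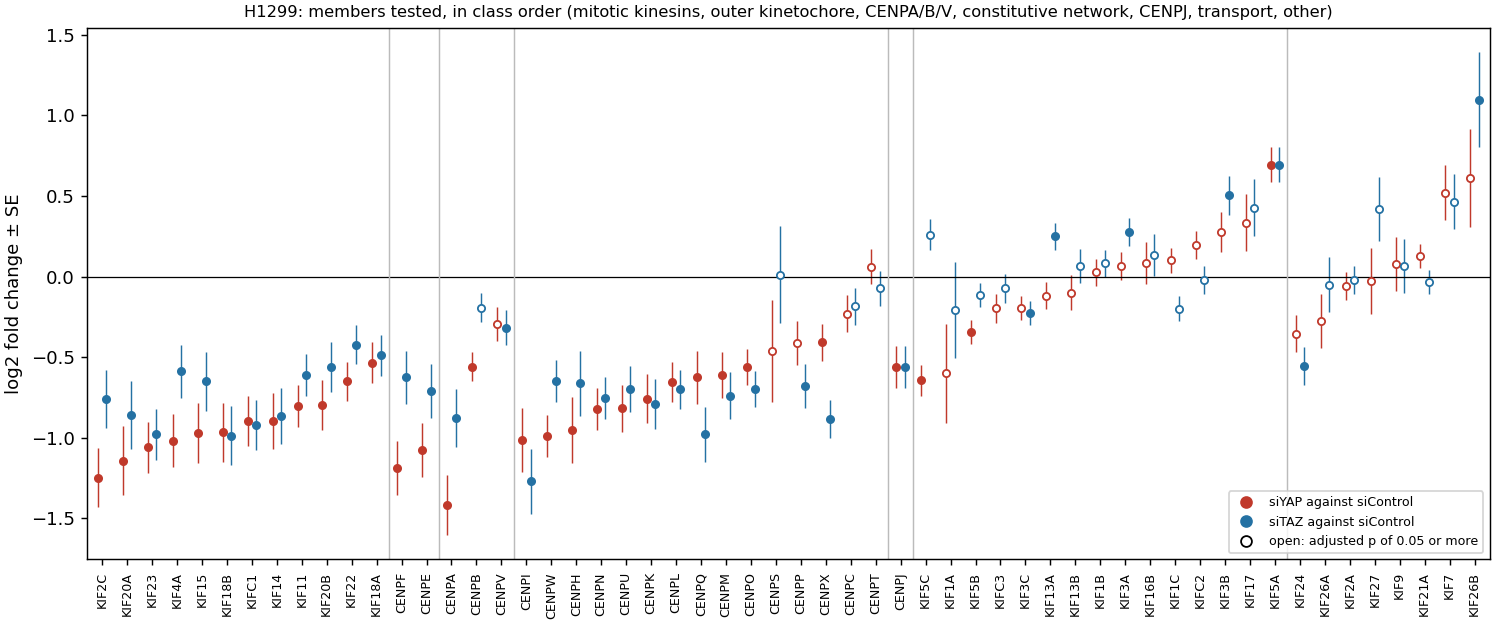
log2 fold change with its SE (y axis) for each of the 56 members tested in H1299 (x axis, in class order), siYAP in red and siTAZ in blue, filled where the adjusted p is under 0.05. All 12 mitotic kinesins are filled and below 0 in both colours, from -1.25 to -0.42, the transport kinesins straddle 0, and KIF5A is above 0 at 0.69 in both.

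Centromere proteins fell nearly as widely. Of 21 CENP genes, 16 were called lower under siYAP and 17 under siTAZ, against 8.75% and 12.4% of genes tested. Their medians were -0.63 and -0.70, and none was called higher by edgeR or DESeq2, or at an unadjusted p under 0.05. For 18 of the 21, in each knockdown, all libraries lay below all control libraries, against 18.3% and 20.1% of genes tested. CENPA (chr2:26764289-26801067, plus strand), the histone that defines the centromere, had the largest change of all members under siYAP. It was at 30.6, 25.8 and 37.2 CPM in siControl, 9.88, 14.4 and 10.8 under siYAP, and 16.2, 21.4 and 13.3 under siTAZ. All knockdown libraries were below all control libraries, while siYAP and siTAZ overlapped, and the changes were -1.42 ± 0.19 (adjusted p = 0.00081) and -0.88 ± 0.18 (adjusted p = 0.0046). CENPA shares exon sequence on the same strand with SLC35F6 in GENCODE, so part of its counts is uncertain. CENPB (chr20:3783851-3786690, minus strand), which binds the alphoid CENP-B box, was at 97.4, 98.7 and 95.7 CPM in siControl and 58.3, 72.2 and 67.7 under siYAP, a change of -0.56 ± 0.09 with no overlap. Under siTAZ it was at 81.1, 89.8 and 84.5 CPM, a change of -0.19 ± 0.09 that missed the threshold (adjusted p = 0.13), and was called with a replicate block (adjusted p = 0.046).

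At the outer kinetochore, CENPF (chr1:214603195-214664588, plus strand), a large coiled-coil protein of G2 and mitosis, was at 178, 142 and 211 CPM in siControl, 73.3, 98.3 and 61.9 under siYAP, and 131, 110 and 103 under siTAZ. CENPE (chr4:103105806-103198409, minus strand), the kinetochore kinesin that brings chromosomes to the metaphase plate, was at 90.2, 77.5 and 117 CPM, then 38.1, 58.8 and 38.3, and 62.3, 58.2 and 54.0. Neither gene had a knockdown library at control level. The changes were -1.19 ± 0.17 and -0.62 ± 0.16 for CENPF and -1.08 ± 0.17 and -0.71 ± 0.17 for CENPE.

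Of the 15 constitutive network genes, 11 were called lower under siYAP and 12 under siTAZ, against 8.75% and 12.4% of genes tested. CENPI (chrX:101098218-101163681, plus strand), which helps load new CENPA, was at 43.2, 27.4 and 39.0 CPM in siControl, 15.6, 24.1 and 14.7 under siYAP, and 17.6, 15.7 and 12.2 under siTAZ, changes of -1.01 ± 0.20 and -1.27 ± 0.20. CENPW, a histone-fold partner of CENPT, was at 21.5, 18.3 and 21.7 CPM, then 8.87, 12.0 and 10.2, and 12.4, 14.3 and 12.6, changes of -0.99 ± 0.13 and -0.65 ± 0.13. In both genes the knockdown libraries were all below the controls. CENPN, which reads the CENPA nucleosome, changed by -0.82 ± 0.13 and -0.75 ± 0.13, and CENPO, a subunit of the CENPO/P/Q/U complex, by -0.56 ± 0.11 and -0.70 ± 0.11.

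CENPX, a histone-fold protein shared with the Fanconi anaemia pathway, was at 51.9, 43.1 and 54.1 CPM in siControl, 34.3, 39.8 and 38.3 under siYAP, and 25.6, 31.2 and 24.1 under siTAZ, so the siTAZ libraries were the lowest of all 9. Its changes were -0.41 ± 0.12 and -0.88 ± 0.12, and its exons overlap those of LRRC45 on the opposite strand. CENPQ was at 22.0, 16.3 and 22.7 CPM, then 9.73, 14.8 and 15.1, and 10.7, 10.7 and 9.65, changes of -0.63 ± 0.17 and -0.98 ± 0.17. The siYAP and siTAZ libraries of CENPQ overlapped, and their difference of 0.35 ± 0.17 was not called (adjusted p = 0.21). CENPM, a small GTPase-like subunit, changed by -0.61 ± 0.14 and -0.74 ± 0.14, CENPK by -0.76 and -0.79, CENPL by -0.65 and -0.70, CENPU by -0.82 and -0.70, and CENPH by -0.95 and -0.66. CENPP was called under siTAZ (-0.68 ± 0.14) and was at -0.41 ± 0.13 under siYAP. Outside the network, CENPJ, a centriole protein despite its symbol, changed by -0.56 in each knockdown, and CENPV was called under siTAZ (-0.32 ± 0.11, adjusted p = 0.047) and was at -0.29 ± 0.11 under siYAP. The CENPV call was lost in 10 of 18 alternatives, among them upper quartile scaling and leaving out any 1 of 7 libraries. CENPC and CENPT, the network members that reach the outer kinetochore, and CENPS, at 0.64 to 1.80 CPM, were not called: CENPC was at -0.23 and -0.18 and CENPT at 0.06 and -0.07.

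**Figure D3:**
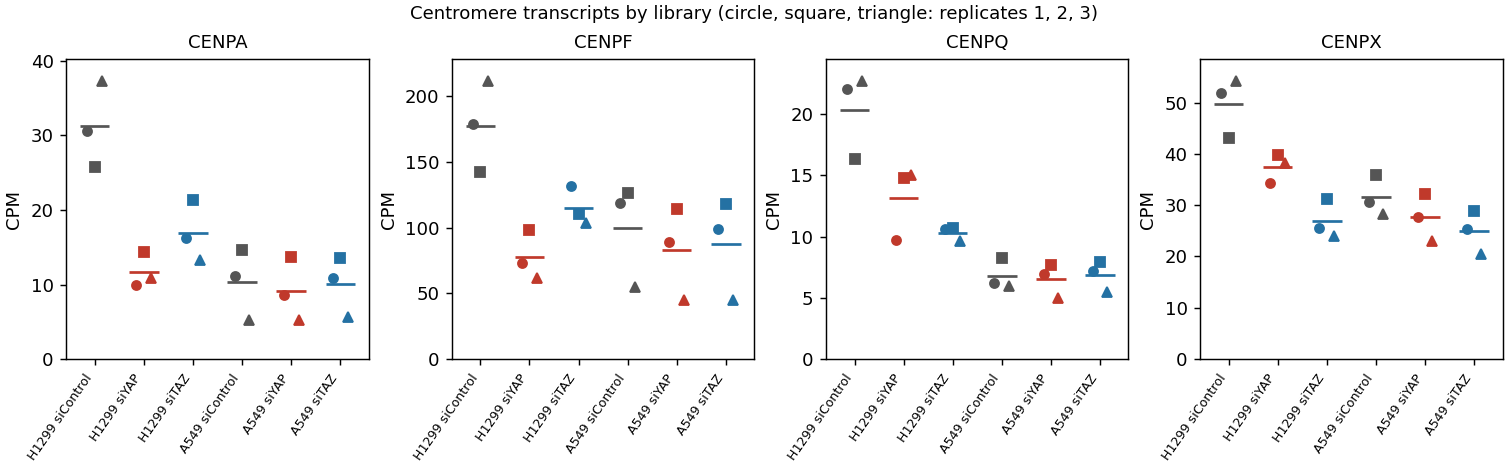
CPM (y axis, from 0) of CENPA, CENPF, CENPQ and CENPX in each library, by line and siRNA (x axis); symbols mark replicate numbers and bars the mean of 3 libraries. In H1299, siYAP is the lowest group for CENPA (9.88 to 14.4 CPM) and CENPF, siTAZ is the lowest for CENPX (24.1 to 31.2 CPM), and the A549 groups overlap.

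Transport kinesins in H1299 had no common direction. Of 15, 2 were called lower and 1 higher under siYAP, against 8.75% and 7.89% of genes tested. Under siTAZ, 1 was called lower and 4 higher, against 12.4% and 10.9%. The medians were 0.03 under siYAP and 0.08 under siTAZ. The kinesin-1 heavy chains, which carry vesicles and mitochondria, diverged. KIF5A (chr12:57549998-57586632, plus strand) rose in both, from 15.3, 15.6 and 17.7 CPM in siControl to 28.7, 22.7 and 27.0 under siYAP and 25.8, 25.2 and 27.4 under siTAZ. All knockdown libraries were above all controls, with a change of 0.69 ± 0.11 in each (adjusted p = 0.0019 and 0.0013). KIF5B (chr10:32009010-32056431, minus strand) fell under siYAP, from 226, 216 and 227 CPM to 171, 183 and 173 with no overlap (-0.34 ± 0.07, adjusted p = 0.0083). Under siTAZ it was at 211, 203 and 206 CPM, a change of -0.11 ± 0.07 (adjusted p = 0.3). KIF5C (chr2:148875250-149026759, plus strand) was at 79.3, 66.4 and 80.1 CPM in siControl, 44.8, 52.4 and 47.5 under siYAP, and 94.0, 83.7 and 92.6 under siTAZ. The siYAP libraries were the lowest 3 and the siTAZ libraries the highest 3. It fell under siYAP (-0.64 ± 0.10, adjusted p = 0.0016), and its siTAZ change of 0.26 ± 0.10 missed the threshold (adjusted p = 0.065) but was called with a replicate block (adjusted p = 0.030).

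**Figure D4:**
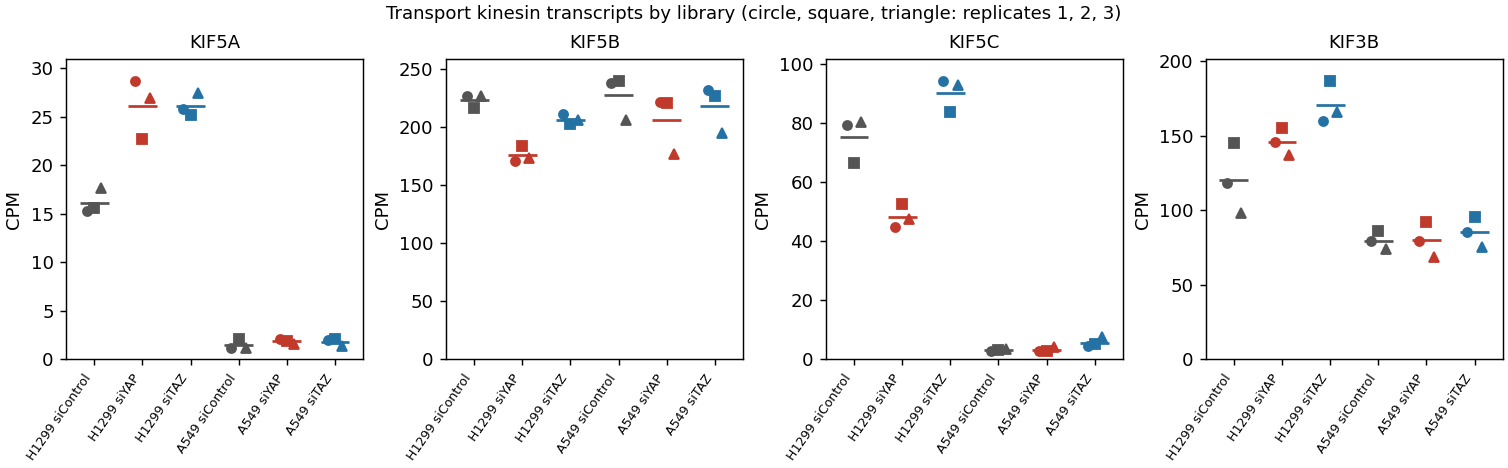
CPM (y axis, from 0) of KIF5A, KIF5B, KIF5C and KIF3B in each library, by line and siRNA (x axis); symbols mark replicate numbers and bars the mean of 3 libraries. In H1299, KIF5A is higher in both knockdowns, KIF5B is lower under siYAP, and KIF5C runs from 44.8 to 52.4 CPM under siYAP to 83.7 to 94.0 CPM under siTAZ. In A549, KIF5C is highest under siTAZ.

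The kinesin-2 subunits, which carry cargo into cilia among other tasks, moved under siTAZ. KIF3B (chr20:32277664-32335011, plus strand) rose from 119, 145 and 97.9 CPM to 160, 187 and 166 (0.50 ± 0.12, adjusted p = 0.01), and was at 146, 155 and 137 CPM under siYAP (0.28 ± 0.12, adjusted p = 0.14, or 0.016 with a replicate block). KIF3A rose from 26.4, 27.0 and 25.5 CPM to 32.8, 30.6 and 32.2 under siTAZ (0.27 ± 0.09, adjusted p = 0.037). KIF3C was called lower, from 148, 136 and 133 CPM to 119, 120 and 117 (-0.23 ± 0.07, adjusted p = 0.041). In all 3 genes the siTAZ and siControl libraries did not overlap. The KIF3C call was lost when any 1 of the 9 libraries was left out, and the KIF3A call when any 1 of 5 was, among them each siControl library. KIF13A, a carrier of recycling endosomes, rose by 0.25 ± 0.08 under siTAZ, a call lost without any 1 of 5 libraries. The other 8 transport kinesins, KIF13B, KIF16B, KIF17, KIF1A, KIF1B, KIF1C, KIFC2 and KIFC3, were not called in either knockdown. Among the kinesins of neither class, KIF24, a ciliary kinesin, was called lower under siTAZ, from 25.2, 23.2 and 28.2 CPM to 19.4, 16.2 and 16.6 (-0.56 ± 0.12, adjusted p = 0.005). KIF26B was called higher, from 1.32, 0.953 and 1.12 CPM to 2.50, 1.56 and 3.25 (1.10 ± 0.29, adjusted p = 0.016), a call lost without siControl replicate 3 or siTAZ replicate 3. The other tested kinesins of neither class, KIF21A, KIF26A, KIF27, KIF2A, KIF7 and KIF9, were not called. KIF7, of Hedgehog signalling in cilia, came nearest at 0.52 ± 0.17 and 0.46 ± 0.17 (adjusted p = 0.052 and 0.064), and was called in both with a replicate block.

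Genes that work with the mitotic members fell with them. Of 10 partners of the mitotic kinesins, all were called lower in both H1299 knockdowns, with medians of -0.96 and -0.70. For each list here, the shares of all genes tested that were called lower are 8.75% under siYAP and 12.4% under siTAZ. PRC1, the microtubule bundler that recruits KIF4A, was at 123, 112 and 147 CPM in siControl, 52.8, 80.0 and 51.1 under siYAP, and 66.4, 73.9 and 59.8 under siTAZ. BIRC5, a passenger complex subunit, changed by -1.30 ± 0.20 and -0.86 ± 0.20. Of 19 other kinetochore and checkpoint genes tested, 16 were called lower in each knockdown; SKA3 changed by -1.11 ± 0.16 and -1.23 ± 0.16 and MAD2L1 by -1.17 ± 0.17 and -1.10 ± 0.17. Of 5 other centromere partners, OIP5 and ITGB3BP among them, 5 were called lower under siYAP and 3 under siTAZ. OIP5 changed by -1.05 ± 0.20 and -1.36 ± 0.21, and ITGB3BP was called under siYAP (-0.86 ± 0.12) and was at -0.24 ± 0.12 under siTAZ. Of 11 regulators of G2/M genes, 7 and 6 were called lower: MYBL2 changed by -0.92 ± 0.19 and -1.05 ± 0.19, and TFDP1 by -0.35 ± 0.10 and -0.70 ± 0.10. Among 6 transport partners tested, KIFAP3, the kinesin-2 adaptor, rose in both (0.51 ± 0.10 and 0.44 ± 0.10) and KLC1, a kinesin-1 light chain, rose under siTAZ (0.39 ± 0.10).

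Members with and without a CHR in the promoter were also set side by side. Of 18 tested H1299 members with the element, 16 were called lower in each knockdown, with medians of -0.86 and -0.64. Of 28 without it, 10 and 11 were called lower, with medians of -0.28 and -0.13. Among all genes tested, 8.75% and 12.4% were called lower. The element goes together with class. Of the 50 members with a promoter, 19 hold it, and 11 of these are mitotic kinesins, the untested KIF4B included. The part of the element in the change was not tested.

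Compared directly in H1299, siYAP and siTAZ differed for few members: 4 were called lower under siYAP and 2 higher, against 6.1% and 5.6% of genes tested. KIF5C had the largest difference at -0.90 ± 0.10 (adjusted p = 0.00016), and it was called under each of the 18 alternatives run, from -1.02 to -0.83. KIF13A, at 56.9, 57.2 and 62.7 CPM under siYAP and 73.5, 75.1 and 79.8 under siTAZ, differed by -0.37 ± 0.08 with no overlap. CENPB differed by -0.37 ± 0.09 and CENPF by -0.56 ± 0.17. The 2 genes higher under siYAP were CENPX (0.47 ± 0.12) and KIF1C, a Golgi-linked kinesin-3, at 129, 126 and 136 CPM under siYAP and 99.5, 109 and 109 under siTAZ (0.30 ± 0.08). No mitotic kinesin was called by edgeR or DESeq2, with 2 lower at an unadjusted p under 0.05, and their differences ran from -0.49 to 0.02. With a replicate block 8 members were called lower, among them KIF2C (-0.50) and KIF4A (-0.44). Leaving out siYAP replicate 2 gave 11, leaving out siYAP replicate 1 gave 2, and both higher calls were lost without siYAP replicate 3, siTAZ replicate 1 or siTAZ replicate 3. A single higher call was left without siControl replicate 1, siYAP replicate 1 or siYAP replicate 2.

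In A549 the 12 mitotic kinesins tested had negative log2 changes in both knockdowns, and the calls among them rest on comparing libraries within replicate numbers. The difference of these changes from those in H1299 was called for none of the 12 by edgeR (adjusted p from 0.051 to 0.35), with values in the line comparison. Their summed RNA was 365, 442 and 192 CPM in siControl, 284, 378 and 173 under siYAP, and 312, 381 and 164 under siTAZ. The groups overlapped, with replicate 3 the lowest and replicate 2 the highest library of each. Against the same-numbered control, siYAP stood at 77.9%, 85.5% and 90.0% and siTAZ at 85.5%, 86.1% and 85.6%. Transport kinesins summed to 1035 to 1131 CPM in all 9 libraries. With the replicate number as a block, as in the authors' own A549 fold changes, 18 of 58 members tested were called lower and 0 higher under siYAP, against 3.17% and 2.5% of genes. For higher, DESeq2 also called 0 and 2 had an unadjusted p under 0.05. Under siTAZ, 16 were called lower and 4 higher, against 6.12% and 7.21%. Without the block edgeR called 0 members and 1 gene in all in each contrast against siControl. At an unadjusted p under 0.05, 0 members were then lower in either, and 0 under siYAP and 2 under siTAZ were higher.

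Of the 12 mitotic kinesins tested in A549, 8 were called lower under siYAP and 6 under siTAZ, against 3.17% and 6.12% of genes tested. Their medians were -0.24 and -0.18, and all 12 had a negative value in both. Under siYAP 11 of the 12 were lower in all 3 same-numbered pairs and under siTAZ all 12 were, against 18.5% and 21.1% of genes tested. KIF23 was at 59.2, 68.6 and 31.2 CPM in siControl, 42.1, 55.4 and 29.0 under siYAP, and 46.6, 54.3 and 25.0 under siTAZ. Each knockdown library was below its same-numbered control, and the changes were -0.31 ± 0.05 (adjusted p = 0.00028) and -0.34 ± 0.05 (adjusted p = 1.8e-05). KIF2C was at 26.1, 31.0 and 12.9 CPM, then 18.0, 24.4 and 10.5, and 22.3, 26.9 and 11.2, again lower in each pair, with changes of -0.38 ± 0.06 and -0.21 ± 0.06. Its siTAZ call (adjusted p = 0.022) was lost in 9 of 18 alternatives, DESeq2 among them. KIF11 changed by -0.23 ± 0.06 and -0.18 ± 0.05, and KIF20A by -0.20 ± 0.06 and -0.26 ± 0.06. KIF4A (-0.27 ± 0.06), KIF14 (-0.24 ± 0.07), KIF18B (-0.32 ± 0.08) and KIF22 (-0.23 ± 0.06) were called under siYAP, and KIFC1 (-0.31 ± 0.07) and KIF20B (-0.25 ± 0.06) under siTAZ. KIF18A and KIF15 were called in neither. DESeq2 did not call KIF11 under siTAZ, or KIF14, KIF18B, KIF20A and KIF22 under siYAP.

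**Figure D5:**
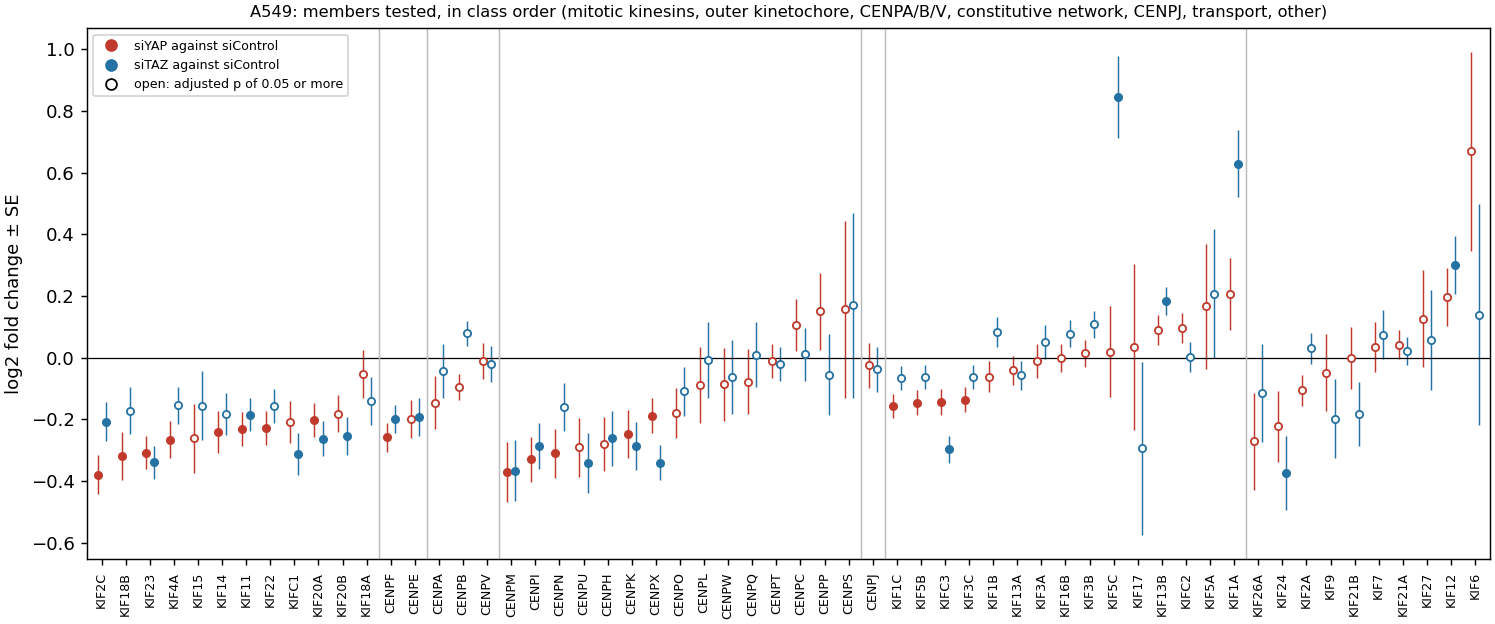
log2 fold change with its SE (y axis, a narrower range than for H1299) for each of the 58 members tested in A549 with the replicate number as a block (x axis, in class order), siYAP in red and siTAZ in blue, filled where the adjusted p is under 0.05. Mitotic kinesins lie between -0.38 and -0.05, and KIF5C (0.84) and KIF1A (0.63) stand out above 0 under siTAZ.

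Of 21 CENP genes, 6 were called lower in A549 under siYAP and 8 under siTAZ, against 3.17% and 6.12% of genes tested. CENPF was at 119, 126 and 54.7 CPM in siControl, 88.8, 114 and 45.1 under siYAP, and 98.9, 118 and 44.9 under siTAZ, lower in each pair, with changes of -0.26 ± 0.05 and -0.20 ± 0.05. CENPE was at 28.3, 31.1 and 16.5 CPM in siControl, 21.7, 28.9 and 14.0 under siYAP, and 23.4, 28.0 and 14.6 under siTAZ, also lower in each pair. It was called under siTAZ (-0.19 ± 0.06, adjusted p = 0.034), a call lost without any 1 of 4 libraries, and was at -0.20 ± 0.06 under siYAP (adjusted p = 0.052). CENPN was at 16.4, 20.4 and 9.06 CPM in siControl, 15.2, 15.5 and 7.83 under siYAP, and 14.3, 17.2 and 10.0 under siTAZ. It was called under siYAP (-0.31 ± 0.08, adjusted p = 0.014), a call lost without siControl replicate 2 or siYAP replicate 2, and was at -0.16 ± 0.08 under siTAZ. CENPI changed by -0.33 ± 0.07 and -0.29 ± 0.07, CENPM by -0.37 ± 0.10 in each, and CENPX by -0.19 ± 0.06 and -0.34 ± 0.06, the siYAP call of CENPX being lost without any 1 of 6 libraries. DESeq2 called neither CENPI nor CENPM in either knockdown. CENPA was at 11.1, 14.7 and 5.25 CPM in siControl, 8.59, 13.6 and 5.20 under siYAP, and 10.9, 13.6 and 5.69 under siTAZ. Its groups overlapped, and values of -0.15 ± 0.09 and -0.04 ± 0.09 were not called. Of the partner genes, PRC1 (-0.30 and -0.33), TPX2 (-0.29 and -0.24), ZWINT (-0.30 and -0.39) and BUB1 (-0.29 in each) were called in both, and HJURP, the CENPA chaperone, (-0.31 ± 0.05) and ITGB3BP (-0.38 ± 0.09) under siYAP. In all, 8 and 7 of 10 mitotic kinesin partners and 9 and 7 of 19 kinetochore genes were called lower. Of 5 other centromere partners, 4 and 2 were called lower. The shares of all genes tested were 3.17% and 6.12%. Of 11 regulators of G2/M genes, 3 were called lower in each knockdown. FOXM1, the transcription factor of late cell cycle genes, changed by -0.32 ± 0.06 and -0.21 ± 0.06, both called, and LIN9, a MuvB subunit, was called under siYAP (-0.44 ± 0.11) and was at -0.28 ± 0.10 under siTAZ. The kinesin light chains KLC4, at 0.21 ± 0.07 and 0.10 ± 0.07, and KLC2, at 0.04 ± 0.05 and 0.06 ± 0.05, were not called.

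Of the 15 transport kinesins in A549, 4 were called lower under siYAP, against 3.17% of genes tested. Under siTAZ, 1 was called lower and 3 higher, against 6.12% and 7.21%. KIF5C rose under siTAZ, from 2.72, 2.93 and 3.43 CPM to 4.32, 4.99 and 7.36 (0.84 ± 0.13, adjusted p = 1.8e-05), and was at 2.64, 2.86 and 3.95 CPM under siYAP (0.02 ± 0.15). All siTAZ libraries were above all others. KIF1A, a neuronal vesicle carrier, was at 8.22, 4.11 and 11.4 CPM in siControl and 8.59, 7.51 and 19.9 under siTAZ, overlapping groups with each pair higher (0.63 ± 0.11, adjusted p = 7.2e-05). KIFC3, a minus-end motor of epithelial cells, fell under both, from 145, 133 and 113 CPM to 127, 120 and 105 under siYAP (-0.14 ± 0.04) and 126, 105 and 88.7 under siTAZ (-0.30 ± 0.04, adjusted p = 3.7e-06). KIF13B rose slightly under siTAZ (0.18 ± 0.05), and KIF1C, KIF3C and KIF5B were called lower under siYAP at -0.16, -0.14 and -0.15. The siYAP calls of KIFC3 and KIF3C were each lost without any 1 of 6 libraries, and that of KIF5B was lost in 8 of 18 alternatives. KIF12, outside both classes, was called higher under siTAZ (0.30 ± 0.09) and KIF24 lower (-0.37 ± 0.12). The KIF12 call was lost in 9 of 18 alternatives and the KIF24 call in 8 of 18, DESeq2 among them for both. Between the siRNAs, 3 members were called lower under siYAP and 1 higher, against 4.52% and 2.52% of genes: KIF5C (-0.83 ± 0.13), KIF1A (-0.42 ± 0.11), CENPB (-0.18 ± 0.04) and, higher, KIFC3 (0.15 ± 0.04).

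The number of A549 members called depended on single libraries. Under siYAP, 5 were called lower without siControl replicate 2 or siYAP replicate 2, and 10 without siYAP replicate 1. The 8 mitotic kinesins then became 4 in each of these cases, and the 6 CENP genes became 1 without siControl replicate 2 or siYAP replicate 2. Under siTAZ, 6 members were called lower without siControl replicate 1, 10 without siControl replicate 2 and 5 without siTAZ replicate 2, and the 4 higher calls became 2 without siControl replicate 2 or siTAZ replicate 2. The 4 transport kinesins lower under siYAP became 0 without siControl replicate 2 or siYAP replicate 2, 1 without siControl replicate 3, and 2 without siYAP replicate 1, siYAP replicate 3 or siTAZ replicate 2. The 6 mitotic kinesins lower under siTAZ became 3 without siControl replicate 1 and 2 without siTAZ replicate 2. The 8 CENP genes became 2 without siControl replicate 1 or siTAZ replicate 2, 4 without siControl replicate 2 and 5 without siTAZ replicate 1. Between siRNAs, 1 member was called lower without siYAP replicate 2, and the higher call was lost without siYAP or siTAZ replicate 2 or 3. KIF2C under siYAP, and KIF23, KIFC1, CENPX, KIFC3, KIF5C and KIF1A under siTAZ, lost their call only when the block was dropped. Replicate 2 of siControl and siYAP are the deepest A549 libraries, at 41.0 and 45.0 M reads, and the part of depth in these counts was not tested.

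The line difference, H1299 effect minus A549 effect, was tested for the 58 members that passed the filter of the joint fit, among them KIF12 and KIF21B, not tested in H1299 alone, and KIF26B, not tested in A549 alone. None of these 3 was called. Under siYAP 6 were called lower and 0 higher, against 1.31% and 0.955% of genes, and under siTAZ 8 were called lower and 0 higher, against 3.24% and 2.73%. The calls fell on CENP genes and on KIF5C, whose differences were -0.67 and -0.59. For higher, 3 and 2 members had an unadjusted p under 0.05. edgeR called no mitotic kinesin, although all 12 differences were negative under each siRNA, with medians of -0.67 and -0.52, and 12 and 8 of them had an unadjusted p under 0.05. That count of 0 also depended on single libraries. Leaving out any 1 library gave 0 to 12 mitotic kinesins called lower under siYAP, with 12 without H1299 siYAP replicate 2. Under siTAZ it gave 0 to 6, and leaving out all replicate 2 libraries gave 9. Under siYAP the count of 6 became 0 without A549 siControl replicate 2, siControl replicate 3 or siYAP replicate 2. It became 1 without H1299 siControl replicate 1 or siYAP replicate 3, or A549 siControl replicate 1, siYAP replicate 1 or siYAP replicate 3. It became 2 without H1299 siYAP replicate 1 and 3 without H1299 siControl replicate 3. It rose to 10 without H1299 siTAZ replicate 2 or 3, 22 without H1299 siControl replicate 2 and 26 without H1299 siYAP replicate 2. Under siTAZ the count of 8 became 0 without A549 siControl replicate 1 or siTAZ replicate 1, and 1 without H1299 siControl replicate 1 or 3, H1299 siTAZ replicate 3, A549 siControl replicate 3 or A549 siTAZ replicate 3. It became 2 without A549 siControl replicate 2 or siTAZ replicate 2, and 5 without A549 siYAP replicate 2 or 3. It rose to 13 without H1299 siTAZ replicate 2, 14 without H1299 siYAP replicate 2 and 19 without H1299 siControl replicate 2. With no replicate block in either line both counts were 0, with 7 and 8 members lower at an unadjusted p under 0.05, and with a block in both lines both were 19. In the same joint fit, YAP1 itself differed by -0.71 ± 0.17 under siYAP (adjusted p = 0.036). WWTR1 differed by -0.76 ± 0.33 under siTAZ and was not called (adjusted p = 0.16). The part of knockdown strength in the line differences was not tested.

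The members without a test were near the floor. In H1299, KIF12, KIF21B, KIF25 and KIF4B stayed at 0 to 12 reads in each library, and in A549 KIF25 and KIF26B at 1 to 14, so a change within that line was not detectable at this depth. KIF6 was listed only for A549, where it was tested and not called. By GENCODE 29, 29 of the 61 members share exon bases with another gene, 26 of them on the opposite strand. Whether counting used strand is not given in the sources used here, so the values of those members may include reads of the overlapping gene.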

How the data were processed

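RNA from 18 libraries was measured as deposited raw counts per gene. The submitters' processing notes name cutadapt, STAR 2.4.2a, DESeq2 and GRCh38. No source used here names the counting tool or its strand setting. The authors' deposited table of each line also holds their log2 fold changes, and 36 normalized or batch-adjusted per-sample columns that were not used. DESeq2 1.42.0 on the counts recovered those fold changes within 0.001 for all H1299 genes without a replicate term and for 99.995% of A549 genes with one.

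Counts were scaled by TMM, filtered by filterByExpr and tested per line with edgeR 4.0.16 (R 4.3.3) by its quasi-likelihood F test, two-sided, with Benjamini-Hochberg adjustment over 15775 genes in H1299 and 16008 in A549. The replicate number was a block in A549 and not in H1299. Line differences came from a joint fit of 15816 of the 17094 genes in both tables. Same-numbered libraries tended to deviate together, clearly in A549 and less so in H1299. In A549 their correlations were 0.38 to 0.73, against -0.55 to 0.28 for differently numbered libraries. In H1299 they were 0.11 to 0.38 against -0.32 to 0.16, ranges that overlap. Values with the replicate block are therefore given beside the unblocked H1299 results where they change a call. Libraries of a group differed beyond counting noise (chi-square per degree of freedom of at least 6.54). The test was checked on simulated data with the same dispersion for all genes. A replicate effect was simulated for A549 only, so the check does not cover such an effect in the unblocked H1299 fit. The members, classes and lists were chosen with earlier results of these data known. Values are given for the 4 members of each class with the smallest adjusted p per line and siRNA, members called against most of their class, members called between siRNAs or lines, CENPA, CENPE and CENPF, and 2 partners per list. Alternatives were another scaling, filter and tool, the block, and leaving out libraries. Lengths and overlaps are from GENCODE 29, promoters from RefSeq GRCh38.p14.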

Additional observations from a re-analysis of the deposited data

Results flagged for a closer look

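The H1299 effect differed from the A549 effect for 14 combinations of a member and a siRNA, by a test of the difference in a joint fit of both lines (edgeR, log2 scale, H1299 minus A549). Under siYAP, CENPA differed most, at -1.26 (adjusted p = 0.014): it fell by 1.42 in H1299 and was at -0.15 in A549. CENPF differed by -0.91 (adjusted p = 0.025), CENPW by -0.89 (adjusted p = 0.018), CENPE by -0.85 (adjusted p = 0.041), KIF5C by -0.67 (adjusted p = 0.043) and CENPB by -0.47 (adjusted p = 0.023). Under siTAZ, CENPQ differed by -0.997 (adjusted p = 0.015): its A549 libraries stood at 6.23, 8.25 and 5.94 CPM in siControl and 7.21, 7.96 and 5.52 in siTAZ. CENPI differed by -0.99 (adjusted p = 0.026), CENPA by -0.85 (adjusted p = 0.039), CENPL by -0.66 (adjusted p = 0.043), CENPN by -0.63 (adjusted p = 0.038), CENPO by -0.61 (adjusted p = 0.023), KIF5C by -0.59 (adjusted p = 0.034) and CENPX by -0.54 (adjusted p = 0.028). KIF5C is the 1 member among them whose siTAZ value was positive in both lines, 0.26 in H1299 and 0.84 in A549.

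Each of these calls was lost in 5 to 17 of the 27 alternatives run, fewest for CENPQ under siTAZ and CENPA under siYAP, and none changed direction. Line, medium and experiment cannot be told apart.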

How the results depend on the processing

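Across all alternatives, 8369 values of single members kept their side of the threshold, 634 lost the call, 251 gained it and 0 reversed. With the replicate number as a block in H1299, 4461, 5606 and 3399 genes were called for siYAP, siTAZ and siYAP against siTAZ; members called higher became 3 and 8, and members lower under siYAP than siTAZ became 8. Beyond the members named with the H1299 results, no call against siControl changed under that block. Members higher under siYAP were 2 with upper quartile factors, a filter at a mean CPM of 1 or DESeq2, and those higher under siTAZ were 3 with no filter. With no replicate block in A549, the genes called were 1, 1 and 2, and members called were 0 in every contrast and direction. DESeq2 called 363, 1160 and 518 genes in A549, 8 and 7 members lower under siYAP and siTAZ, and 0 members higher under siYAP than siTAZ. Line differences with no replicate block numbered 13 and 60 genes and 0 members. With the replicate block in both lines they numbered 1712 and 2797 genes, 19 members lower and 2 higher for each siRNA. Upper quartile factors gave 5 members lower and 1 higher for the siTAZ line difference. The siTAZ change of the mitotic to transport ratio in H1299 was -0.79 by sums and -1.02 by medians over members.

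Leaving out 1 library or 1 replicate number gave 34 to 4430 genes, 0 to 35 members lower and 0 to 4 higher for siYAP in H1299. For siTAZ it gave 144 to 5267 genes, 0 to 32 lower and 0 to 8 higher, and for siYAP against siTAZ 190 to 2945 genes, 1 to 15 lower and 0 to 2 higher. In A549 the ranges were 157 to 1027 genes and 4 to 23 lower for siYAP, 940 to 2142 genes, 5 to 17 lower and 2 to 5 higher for siTAZ, and 289 to 1276 genes, 1 to 3 lower and 0 to 1 higher between them. Line differences ranged over 0 to 1612 genes, 0 to 27 lower and 0 to 1 higher for siYAP, and 0 to 2356 genes, 0 to 23 lower and 0 to 3 higher for siTAZ. The cause of these shifts was not tested. Members under about 10 reads per library could not be tested at this depth.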
